A study of Mus musculus with 10 samples.

Results

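The expression of 10 antioxidant enzyme genes, Sod1, Sod2, Cat, Prdx1, Prdx3, Prdx5, Gpx1, Gpx4, Hmox1 and Nqo1, was examined in MuSCs (muscle stem cells, also called satellite cells) that had lost the ion channel gene Trpm7. The genes were chosen by name for what their proteins do, and all 10 were found among the 24608 gene symbols of the count table. RNA-seq of these cells was done to ask what accompanies the impaired muscle regeneration of Trpm7 cKO mice. Control mice carried Trpm7+/+, Pax7CreERT2/+ and Rosa26YFP, and Trpm7 cKO mice carried Trpm7flox/flox with the same Pax7CreERT2/+ and Rosa26YFP alleles. Every mouse, in both groups, had a C57BL6 background, was an adult of 7 to 20 weeks, received tamoxifen (TMX) in 5 injections, and had its muscle injured with cardiotoxin (CTX) 3 days before the cells were taken. The Pax7 promoter drives the tamoxifen-activated Cre, so recombination is aimed at MuSCs, and Cre activity and tamoxifen were common to both groups. Each of the 5 control and 5 Trpm7 cKO libraries was made from 3000 sorted cells by CEL-Seq2, a method that tags the 3′ end of each transcript with a unique molecular identifier (UMI) so that every molecule is counted once.

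Oxygen metabolism, chiefly in mitochondria, releases superoxide. Superoxide dismutases convert it to hydrogen peroxide, and catalase, peroxiredoxins and glutathione peroxidases then reduce peroxides, the latter families drawing electrons from thioredoxin or glutathione and, behind these, from NADPH. Hmox1 breaks down heme and Nqo1 reduces quinones, and both are textbook targets of the transcription factor NRF2, which is held in check by KEAP1 and opposed by BACH1 at antioxidant response elements (AREs). In regenerating muscle, MuSCs leave quiescence and divide while inflammatory cells around them produce oxidants.

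Because several of these enzymes are described as NRF2 targets, the 250 bases before each RefSeq start site (GRCm38.p6) were searched on both strands for the core letters of the ARE, TGACNNNGC, and for the AP-1 site, TGANTCA, which can overlap an ARE. Of 32851 such windows in the RefSeq promoter table, 10.2% held the ARE core and 6.75% the AP-1 letters. Windows were found for 9 of the 10 genes, all but Hmox1, and Gpx4 had 4 windows. Prdx1 held 1 ARE core match and 2 AP-1 matches, and the ARE core match at base 133 before the start overlapped the AP-1 match at base 131. Sod1 held 1 ARE core match, at base 56 before the start. No match to either motif lay in the windows of Sod2, Cat, Prdx3, Prdx5, Gpx1, Gpx4 or Nqo1. Sites farther than 250 bases from the start were not searched, so these genes may hold motifs elsewhere. The Sod2 window and Gpx4 windows 2, 3 and 4 lay inside the GENCODE gene models. The windows of Prdx1 and Sod1 are shown because they hold the matches, and that of Prdx3 because its expression differed between the genotypes about as much as that of Prdx1 without a match. Each is cut where the GENCODE gene model begins, is written 5′ to 3′ on the strand of its gene, and has motif matches in capitals. They lie at chr4:116685349-116685543 (plus strand) for Prdx1, chr16:90220512-90220753 (plus strand) for Sod1 and chr19:60874557-60874788 (minus strand) for Prdx3.
Prdx1: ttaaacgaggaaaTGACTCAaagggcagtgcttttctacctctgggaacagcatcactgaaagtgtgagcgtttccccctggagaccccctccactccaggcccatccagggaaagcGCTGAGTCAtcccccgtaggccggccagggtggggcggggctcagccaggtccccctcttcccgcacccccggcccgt
Sod1: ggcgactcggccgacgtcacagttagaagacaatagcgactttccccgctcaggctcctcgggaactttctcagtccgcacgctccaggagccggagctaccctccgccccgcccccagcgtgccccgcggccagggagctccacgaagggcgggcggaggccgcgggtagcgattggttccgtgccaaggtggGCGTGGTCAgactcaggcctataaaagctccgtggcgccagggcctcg
Prdx3: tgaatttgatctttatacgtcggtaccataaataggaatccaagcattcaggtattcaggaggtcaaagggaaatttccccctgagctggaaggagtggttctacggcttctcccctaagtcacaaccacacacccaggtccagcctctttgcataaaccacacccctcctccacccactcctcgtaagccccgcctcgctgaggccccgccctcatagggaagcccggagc

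A letter match is a description of the window and was not tested as a binding site.

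Control libraries held 914361 to 1097709 counts, and Trpm7 cKO libraries 205986 to 581121, so that every Trpm7 cKO library was smaller. Trpm7 itself, read only at its 3′ end, had 66 to 84 counts in control and 10 to 55 in Trpm7 cKO libraries, with a log2 fold change of -0.09 (standard error, SE, 0.20, and edgeR adjusted p = 0.723). Where the deleted part lies relative to that end is not given in the sources used here, so these counts do not check the deletion. MuSC identity genes such as Pax7 summed to 4337 to 5091 normalized CPM (counts per 1e6, TMM-scaled) in control libraries. In Trpm7 cKO libraries the sum was 4121 to 7426 CPM. Of 18 such genes 16 were tested, 8 higher and 3 lower at an edgeR adjusted p below 0.05, beside 24.6% and 24.1% of all tested genes. Their median log2 fold change was 0.60, so genes used below to set a scale differed themselves between the genotypes. For uninjured muscle, the study describes staining for Sca-1, CD45 and CD31, surface proteins of fibroadipogenic, leukocyte and endothelial cells, and collecting CD106-positive cells. For the RNA-seq it refers to a sorting profile of YFP-positive MuSCs, and whether the CD106 scheme was also used there is not stated. Markers of other cells were present and higher in the Trpm7 cKO libraries, at summed CPM of 262 to 454 against 1233 to 5128 for 22 leukocyte genes, 172 to 305 against 529.8 to 1451 for 6 fibroadipogenic genes, 3.22 to 62.5 against 109 to 563 for 7 endothelial genes and 1.99 to 178 against 146 to 3277 for 5 erythroid genes in the table, where the groups overlapped. All 17 leukocyte, 3 fibroadipogenic, 3 endothelial and 3 erythroid markers that could be tested were higher, where 24.6% of all tested genes were higher. A marker scarce in control could pass the filter on low counts only through the Trpm7 cKO libraries, so these counts are not independent of that direction. Neutrophil markers summed to 4.97 to 12.9 CPM in control and 11.04 to 49.7 CPM in Trpm7 cKO libraries, none being tested. Only replicate 2 of Trpm7 cKO lay inside the control range of this sum. Slc4a1 of the erythroid and Cxcr2 of the neutrophil markers had 0 counts in all control libraries. In the labels, replicates 4 and 5 of Trpm7 cKO carry the same number, whose meaning is not given, so these libraries may not be independent, and nothing in the labels says that the others came from separate animals.

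The main comparison was whether the genotypes differed in each gene. Values are normalized CPM, counts per 1e6 counts after scaling by edgeR's TMM method, and differences are log2 fold changes of Trpm7 cKO over control from edgeR's quasi-likelihood test across all 7753 genes that passed a filter on low counts. Of the 10 enzymes, 9 passed the filter. At an adjusted p below 0.05, 5 were lower in Trpm7 cKO, where 24.1% of all tested genes were lower. These were both listed superoxide dismutases and the 3 listed peroxiredoxins. Another 3 were higher, where 24.6% of all tested genes were higher and 48.7% passed in either direction. These were both listed glutathione peroxidases and Hmox1. Gpx4 and Hmox1, at 9 and 12 counts in control replicate 3, did not reach the filter's cutoff there, which grows with library size. They passed it only with help from Trpm7 cKO libraries, so that they were tested is not fully independent of their direction. The 3 higher calls depended on scaling by library content. Taking the counts of 3000 sorted cells as they stood, the median of all genes was -1.15, Gpx1 turned to -0.29 and Gpx4 and Hmox1 no longer passed, at 0.25 and 0.13. These unscaled counts also carry differences in capture and sequencing depth between libraries, which cannot be told apart from RNA per cell. With the study's stated thresholds, an absolute log2 fold change above 1.5 and an adjusted p below 0.05, Gpx4 alone was called, as higher (8.49% of all tested genes were called higher, 3.53% lower and 12.0% in either direction). Normalized CPM did not overlap between the genotypes for the same 5 lower genes and for Gpx1, where 17.9% of all tested genes were lower, 16.6% higher and 34.5% either without overlap. The median log2 fold change of the 9 tested enzymes was -0.39, beside -0.01 for all tested genes.

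**Figure D1:**
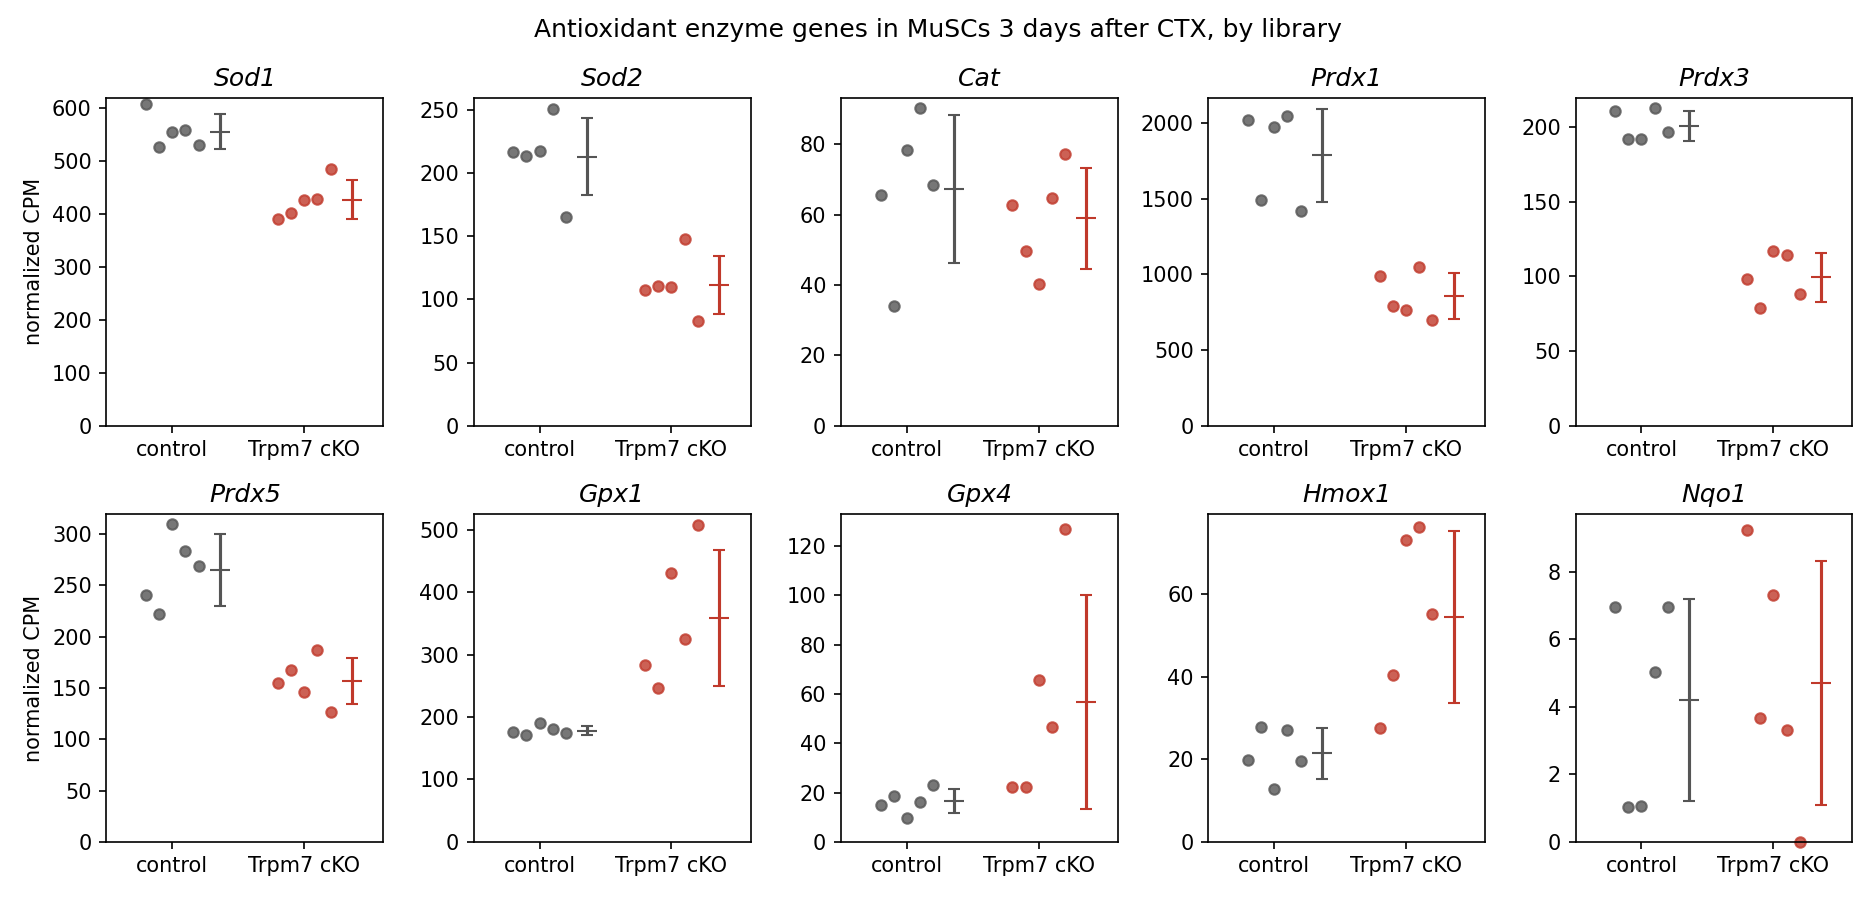
Normalized CPM (vertical axes, each starting at 0) of the 10 antioxidant enzyme genes in each of 5 control (grey) and 5 Trpm7 cKO (red) libraries, with the mean and SD as bars. The groups are apart for Sod1, Sod2, Prdx1, Prdx3, Prdx5 and Gpx1, and overlap for Cat, Gpx4, Hmox1 and Nqo1.

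The peroxiredoxins, which reduce peroxides with electrons from thioredoxin, were about 2-fold lower in Trpm7 cKO for Prdx1 and Prdx3. Prdx1, mostly a cytosolic peroxiredoxin, lies at chr4:116685544-116700822 on the plus strand, and was the most abundant of the 10 transcripts. Its normalized CPM was 2019.6, 1489, 1972, 2044 and 1420.4 in control replicates 1 to 5, and 992, 789, 767, 1047 and 701 in Trpm7 cKO replicates 1 to 5. The lowest control library was thus still above the highest Trpm7 cKO library. The means were 1789 ± 307 and 859 ± 151 (SD, n = 5 each), a 2.07-fold lower level in Trpm7 cKO, with a log2 fold change of -1.05 (SE 0.16, edgeR adjusted p = 1.88e-05).

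Prdx3, the peroxiredoxin of the mitochondrial matrix, at chr19:60864051-60874556 on the minus strand, had 211, 192, 192, 213 and 197 CPM in control and 97.9, 79.1, 117, 114 and 88.3 CPM in Trpm7 cKO libraries. All control libraries lay within a narrow band, and no Trpm7 cKO library came near it. The means were 201 ± 10.2 and 99.3 ± 16.3 (SD, n = 5 each), with a log2 fold change of -1.01 (SE 0.15, edgeR adjusted p = 1.31e-05).

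Prdx5, which is found in mitochondria, peroxisomes and cytosol, lies at chr19:6906697-6910106 on the minus strand. It had 241, 222, 309.9, 283 and 269 CPM in control and 155, 167, 146, 187 and 127 CPM in Trpm7 cKO libraries. Again the groups did not overlap, with means of 265 ± 34.6 and 157 ± 22.6 (SD, n = 5 each). The log2 fold change was -0.73 (SE 0.15, edgeR adjusted p = 3.79e-04), a 1.66-fold lower level. In bulk libraries like these, fewer cells of a type and less RNA per cell cannot be told apart.

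Both listed superoxide dismutases were lower in Trpm7 cKO. Sod2, the manganese enzyme of mitochondria, at chr17:13006846-13040063 on the plus strand, had 217, 214, 218, 251 and 166 CPM in control and 107, 110.4, 109.6, 147 and 82.8 CPM in Trpm7 cKO libraries. Replicate 5 was the lowest library of each group, and the groups stayed apart. The means of 213 ± 30.5 and 111 ± 23.1 (SD, n = 5 each) gave a log2 fold change of -0.90 (SE 0.16, edgeR adjusted p = 1.44e-04). Of the last 500 bases of its transcript, 38.4% also occur in stretches of 31 bases in 289 other genes, and reads there may not have been assigned uniquely.

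Sod1, the copper-zinc enzyme of the cytosol, at chr16:90220754-90226329 on the plus strand, had 609, 527, 556, 558 and 530.2 CPM in control and 389.9, 403, 427, 429 and 486 CPM in Trpm7 cKO libraries. The gap between the groups was small, since the highest Trpm7 cKO library was close to the lowest control library. The means were 556 ± 32.8 and 427 ± 36.7 (SD, n = 5 each), with a log2 fold change of -0.39 (SE 0.12, edgeR adjusted p = 0.0143). This call was lost when libraries were scaled by total counts alone, at -0.30 (edgeR adjusted p = 0.0604), and when counts were thinned to the depth of the smallest library, at -0.25 (edgeR adjusted p = 0.192). The last 500 bases of Sod1 share 68.2% with the pseudogenes Gm8566 and Gm8238, which held at most 2 and 1 counts in any library. Scaf4, which overlaps this end on the opposite strand, held 11 to 53 counts, and the strand setting of the counting is not given in the sources used here.

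Cat, the catalase of peroxisomes, at chr2:103453849-103485160 on the minus strand, did not pass the test. It had 65.6, 34.1, 78.3, 90.3 and 68.3 CPM in control and 62.8, 49.7, 40.2, 64.6 and 77.3 CPM in Trpm7 cKO libraries. The lowest and the highest of the 10 libraries were both controls. The log2 fold change was -0.21 (SE 0.24, edgeR adjusted p = 0.494), and the exact permutation test of CPM gave p = 0.468 (two-sided, all splits, n = 5 each). It passed as lower where the scale was set by MuSC identity genes, at -0.66 (edgeR adjusted p = 0.0478), a setting in which the median of all genes was -0.48.

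The listed glutathione peroxidases moved opposite to the listed peroxiredoxins on the TMM scale. Gpx1, the ubiquitous selenium-containing peroxidase, lies at chr9:108338903-108340343 on the plus strand. It had 176, 170.4, 189.8, 181 and 175 CPM in control and 283, 247, 431, 325 and 508 CPM in Trpm7 cKO libraries. Control libraries differed little, and every Trpm7 cKO library was above them, replicates 3 and 5 by most. The means of 178 ± 7.40 and 359 ± 108 (SD, n = 5 each) gave a log2 fold change of 0.97 (SE 0.17, edgeR adjusted p = 1.01e-04), a 1.96-fold higher level. This rise turned to -0.29 (edgeR adjusted p = 0.474) with counts per 3000 sorted cells, since raw counts were 151 to 180 in control and 92 to 196 in Trpm7 cKO libraries, and it was 0.54 (edgeR adjusted p = 0.0576) on the scale of MuSC identity genes.

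Gpx4, which reduces lipid peroxides in membranes and guards against ferroptosis, lies at chr10:80047166-80056439 on the plus strand and was read at low depth, with 9 to 20 counts in control and 12 to 28 counts in Trpm7 cKO libraries. Its normalized CPM was 14.9, 18.6, 9.65, 16.1 and 23.2 in control and 22.2, 22.1, 65.8, 46.4 and 127 in Trpm7 cKO libraries. Replicates 1 and 2 of Trpm7 cKO lay within the control range, and replicate 5, the smallest library, stood highest. The means of 16.5 ± 4.95 and 56.7 ± 43.3 (SD, n = 5 each) gave a log2 fold change of 1.51 (SE 0.41, edgeR adjusted p = 0.00590), and the exact permutation test gave p = 0.0238 (two-sided, all splits). The fold change fell to 0.90 (edgeR adjusted p = 0.0355) without Trpm7 cKO replicates 3 and 5, the smallest libraries, and to 1.15 (edgeR adjusted p = 0.00685) without replicate 5 alone, so the call at an absolute log2 fold change above 1.5 was lost. The last 500 bases of Gpx4 share 99.8% with 2 pseudogenes, Gpx4-ps2 and AC122253.3, so its reads may have been split or dropped. Gpx4-ps2 held 2 to 8 counts per library.

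Hmox1, the inducible heme oxygenase that opens heme and frees its iron, at chr8:75093621-75100589 on the plus strand, had 19.9, 27.9, 12.9, 27.1 and 19.7 CPM in control and 27.7, 40.5, 73.1, 76.2 and 55.2 CPM in Trpm7 cKO libraries. Replicate 1 of Trpm7 cKO lay just inside the control range, and the other four libraries of that genotype lay above it. The means were 21.5 ± 6.17 and 54.5 ± 20.8 (SD, n = 5 each), with a log2 fold change of 1.30 (SE 0.29, edgeR adjusted p = 8.09e-04) and p = 0.0159 in the exact permutation test (two-sided, all splits). With counts per 3000 sorted cells the log2 fold change was 0.13 (edgeR adjusted p = 0.761).

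Nqo1, the quinone reductase often used to read NRF2 activity, at chr8:107388225-107403206 on the minus strand, was close to the limit of detection and did not pass the filter. It had 7, 1, 1, 5 and 6 counts in control and 5, 2, 2, 2 and 0 counts in Trpm7 cKO libraries. As normalized CPM these were 4.21 ± 2.99 and 4.71 ± 3.62 (SD, n = 5 each), which differed by less than their spread (two-sided exact permutation p = 0.833). The 0 counts of Trpm7 cKO replicate 5 allow up to 16.6 CPM (3 counts, counting error only), above all other values, so a difference of this gene was not detectable at this depth. Without the filter, the log2 fold change was 0.09 (edgeR adjusted p = 0.928), and DESeq2 gave 0.19 (adjusted p = 0.893).

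**Figure D2:**
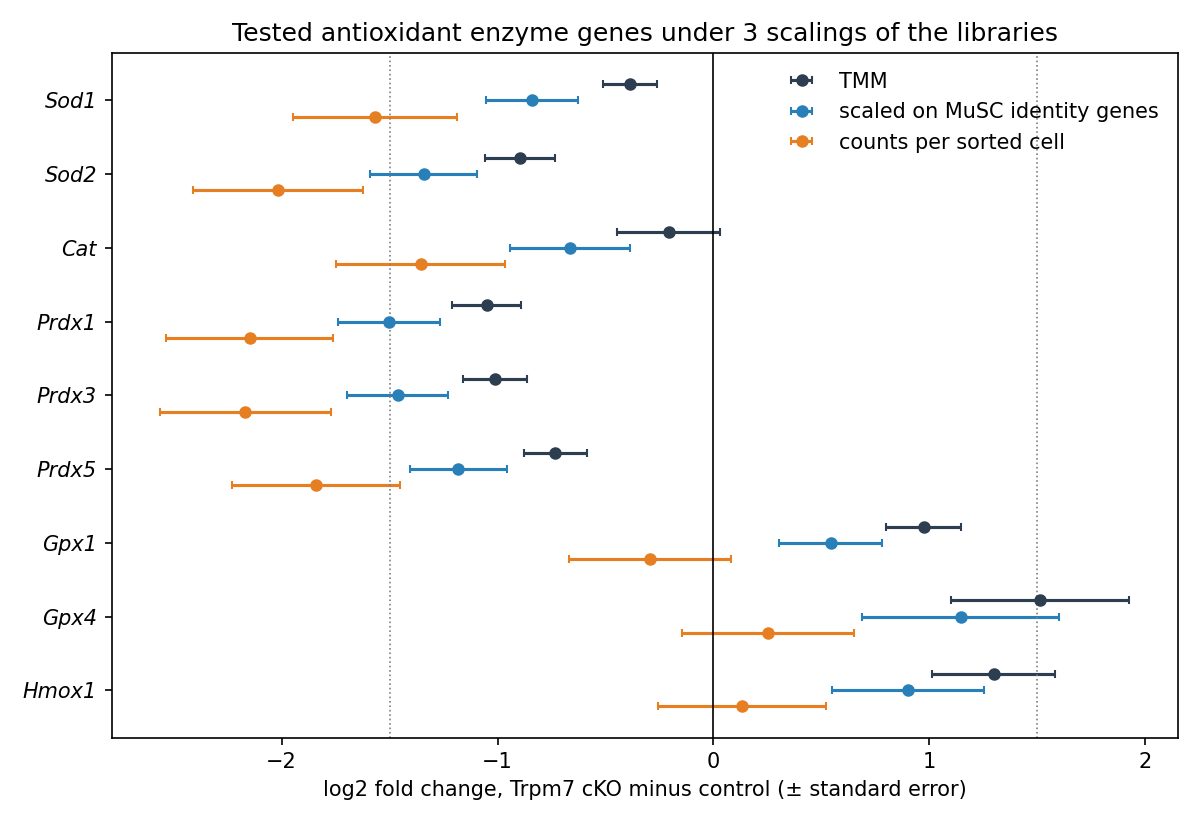
Log2 fold change of Trpm7 cKO over control for the 9 tested antioxidant enzyme genes, with the standard error as bars, on the TMM scale and on 2 other scales of the libraries, and dotted lines at an absolute log2 fold change of 1.5. Prdx1 is at -1.05 and Gpx4 at 1.51 on the TMM scale, and Gpx1 crosses 0, to -0.29, with counts per 3000 sorted cells.

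Markers of other cells were set beside the 3 higher genes by library, and a cause of the higher levels was not tested. Summed leukocyte markers were 2939.8, 1233, 3131, 5128 and 5099 CPM in Trpm7 cKO replicates 1 to 5, and summed erythroid markers were 146, 1005, 3277, 1824 and 1650.0 CPM. Trpm7 cKO replicates 1 and 2, the lowest for Gpx1, Gpx4 and Hmox1, were also the lowest in erythroid and endothelial markers, and replicate 2 was the lowest in leukocyte markers. Fibroadipogenic markers did not follow, being lowest in replicate 3, at 529.8 CPM, and at 1205 CPM in replicate 1. Replicate 4, with the highest leukocyte sum, was below replicates 3 and 5 for Gpx1 and Gpx4, though highest for Hmox1. With the leukocyte marker level as a covariate, none of the 9 enzymes passed. Gpx1 was then at 0.02 (edgeR adjusted p = 0.993), Gpx4 at -1.36 (0.462) and Hmox1 at -0.05 (0.988), while Prdx3 was at -1.49 (0.0518) and Prdx1 at -0.93 (0.290). With the erythroid marker level as a covariate, Prdx3 alone passed as lower, and Gpx4 was at -0.10 (edgeR adjusted p = 0.952). Of all 7753 tested genes, 353 passed as higher and 121 as lower with the leukocyte covariate, and 618 and 411 with the erythroid covariate. Without a covariate 1908 and 1866 passed, so most calls in the whole table were lost in both fits. The SE of Prdx1 was 0.16 without and 0.48 with the leukocyte covariate. Since the leukocyte sums of the genotypes do not overlap, leukocyte marker level and genotype cannot be told apart in the first of these fits.

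**Figure D3:**
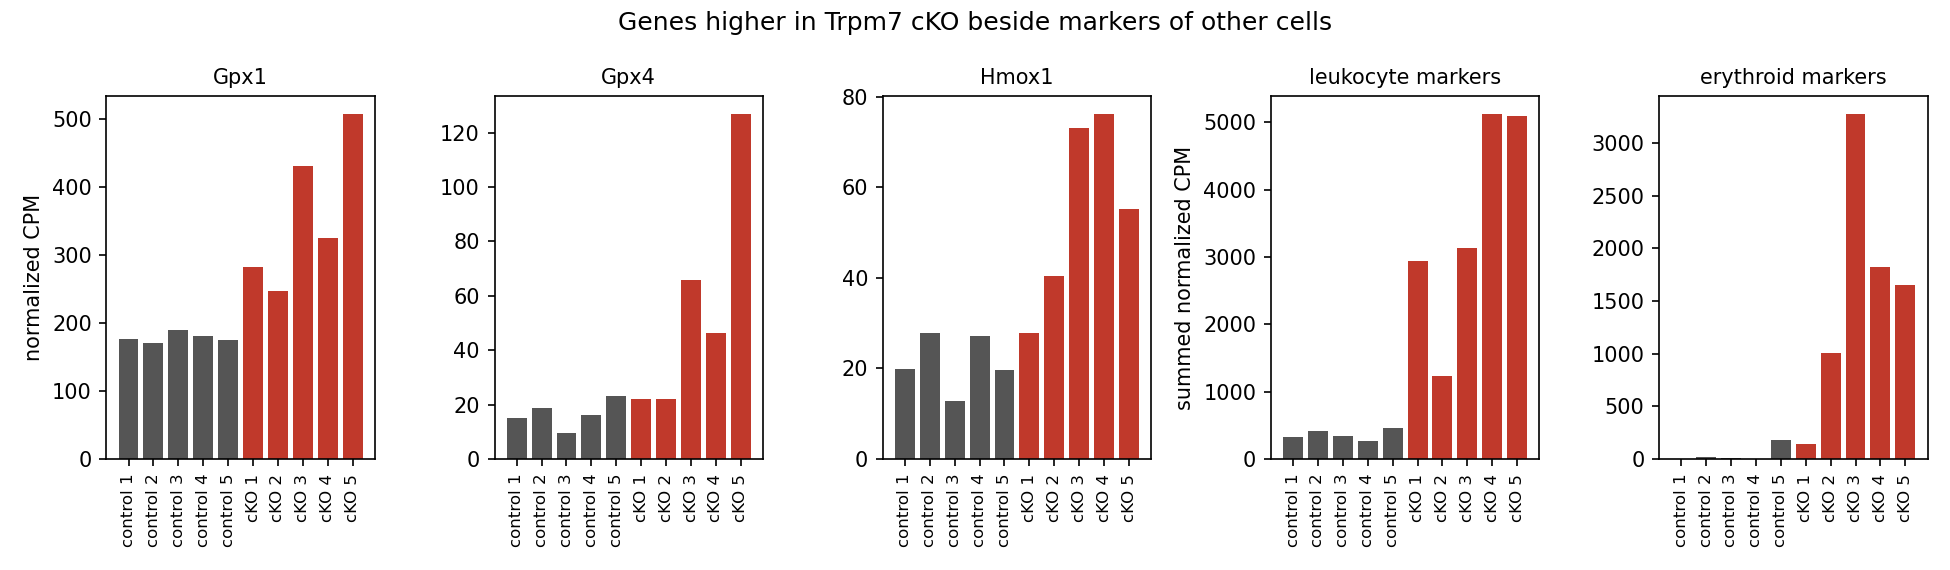
Normalized CPM of Gpx1, Gpx4 and Hmox1, and summed normalized CPM of 22 leukocyte markers and 5 erythroid markers, as bars for each of 5 control (grey) and 5 Trpm7 cKO (red) libraries. On this scale Gpx1 and the leukocyte sum are higher in every Trpm7 cKO library than in any control, and replicate 2 of Trpm7 cKO is the lowest of its genotype for the leukocyte sum, at 1233 CPM.

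The order of the levels was also compared. CEL-Seq2 counts each molecule at its 3′ end, so that CPM does not grow with transcript length and levels can be set side by side, apart from genes whose ends are shared or wrongly annotated. In control MuSCs Prdx1 stood highest, followed by Sod1, and Prdx1 took 54.1% of the counts of the 10 genes. Prdx5, Sod2 and Prdx3 followed with neighbouring ranges that overlapped, then Gpx1, Cat, Hmox1 and Gpx4, the latter pair overlapping, and Nqo1 last. In Trpm7 cKO libraries Prdx1 remained first with 41.3% of the counts, and Gpx1 followed Sod1 with a range that overlapped it, above Prdx5, Sod2 and Prdx3. Cat, Gpx4 and Hmox1 overlapped in turn in Trpm7 cKO, and Nqo1 was again last. The 10 genes together had 3311 ± 392.1 CPM in control and 2187 ± 190.8 CPM in Trpm7 cKO libraries (SD, n = 5 each), a sum in which Prdx1 weighs most.

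Ratios of paired enzymes within a library do not depend on how libraries are scaled, and 4 were compared by exact permutation tests (two-sided, all splits, n = 5 each). The log2 ratio of mitochondrial Sod2 to cytosolic Sod1 was -1.39 ± 0.20 in control and -1.94 ± 0.36 in Trpm7 cKO libraries (SD). Trpm7 cKO replicate 4, at -1.54, lay inside the control range of -1.68 to -1.15, and the other four lay below it. The difference of -0.55 had an exact permutation p = 0.0159, or 0.0635 after Benjamini-Hochberg adjustment over the 4 ratios, and so did not pass after adjustment. Mitochondrial Prdx3 to cytosolic Prdx1 gave -3.13 ± 0.22 and -3.09 ± 0.27 (SD), a difference of 0.04 within the replicate error (exact permutation p = 0.770). Gpx1 to Gpx4 gave 3.45 ± 0.50 and 2.90 ± 0.65 (SD), a difference of -0.55 (exact permutation p = 0.183, adjusted 0.243). Inducible Hmox1 to constitutive Hmox2 differed by 1.11 (exact permutation p = 0.0397, adjusted 0.0794), but Hmox2 had 0 to 2 counts per library, and the difference was 0.45 (p = 0.151) when 2 counts in place of 0.5 were added to both genes.

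**Figure D4:**
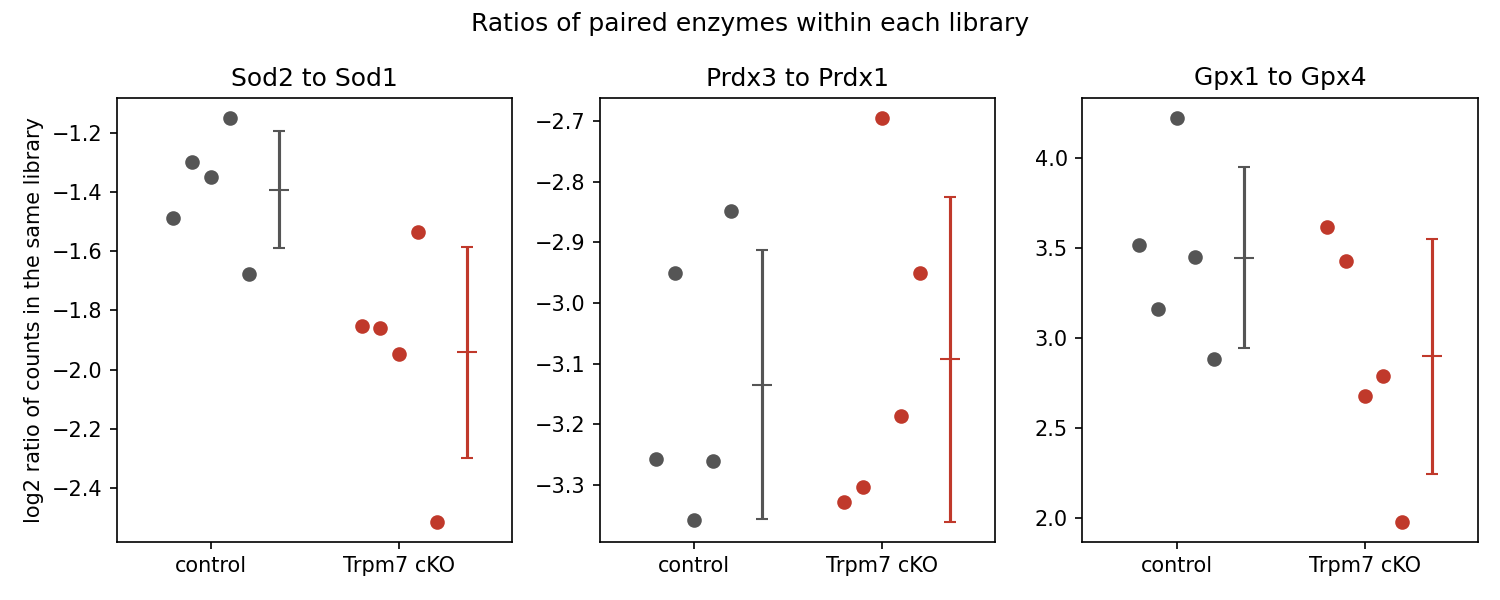
Log2 ratio of the counts of 2 enzymes in the same library for Sod2 to Sod1, Prdx3 to Prdx1 and Gpx1 to Gpx4, as points for each of 5 control (grey) and 5 Trpm7 cKO (red) libraries, with the mean and SD as bars. The means of Sod2 to Sod1 differ by -0.55 and those of Prdx3 to Prdx1 by 0.04.

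Genes that feed or regulate these enzymes were examined in 7 lists of 83 genes, of which 57 could be tested. At an adjusted p below 0.05, 17 were higher and 19 lower in Trpm7 cKO, and with both thresholds 8 were higher and 4 lower, beside the percentages of all tested genes given above. Their median log2 fold change was -0.04, beside -0.01 for all tested genes. With counts per 3000 sorted cells, 7 were higher and 36 lower at the same adjusted p, so the balance of directions holds for the TMM scale. A gene scarce in either genotype could pass the filter only through the other, so the counts of higher and lower genes are not independent of direction. Fits with the leukocyte covariate are given for named genes, and in them leukocyte marker level and genotype cannot be told apart.

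Among 8 other superoxide and peroxide enzymes, 6 were tested, 3 higher and 1 lower, beside 24.6% and 24.1% of all tested genes. The peroxiredoxins Prdx2 and Prdx4, named here after their values were seen, did not pass, and their ranges overlapped between the genotypes. Their log2 fold changes were -0.23 (edgeR adjusted p = 0.283) and -0.24 (0.330). Gpx3, the secreted glutathione peroxidase, rose from 69.7 to 147 CPM in control to 585 to 2362 CPM in Trpm7 cKO libraries, with a log2 fold change of 3.93 (SE 0.38, edgeR adjusted p = 6.07e-06). The extracellular superoxide dismutase Sod3 had 16.9 to 44.2 CPM against 38.6 to 152.7 CPM, with a log2 fold change of 1.73 (edgeR adjusted p = 1.97e-04), and its ranges overlapped. With counts per 3000 sorted cells Sod3 no longer passed, at 0.65 (edgeR adjusted p = 0.117). With the leukocyte covariate Gpx3 was at 3.67 (edgeR adjusted p = 0.0564) and Sod3 passed, at 3.57 (9.38e-04). Prdx6, a cytosolic peroxiredoxin that uses glutathione, fell from 256 to 321 CPM to 82.8 to 171 CPM, with a log2 fold change of -1.01 (edgeR adjusted p = 3.38e-05) and at -0.59 (0.511) with the leukocyte covariate.

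The thioredoxin system, which serves the peroxiredoxins, had 11 genes, 8 of them tested, 4 higher and 2 lower. Over all tested genes the shares were 24.6% higher and 24.1% lower. Txn1, the cytosolic thioredoxin, had 1970.2 to 2328 CPM in control and 596 to 1175 CPM in Trpm7 cKO libraries, with a log2 fold change of -1.35 (SE 0.17, edgeR adjusted p = 2.16e-06). Txnip, which binds thioredoxin and inhibits it, had 25.7 to 53.3 CPM in control and 547 to 1783 CPM in Trpm7 cKO libraries. Its log2 fold change of 5.14 (SE 0.30, edgeR adjusted p = 1.03e-08), a 35.3-fold higher level, was the greatest of the 57 tested pathway genes. It was 6.08 (edgeR adjusted p = 8.31e-05) with the leukocyte covariate. Sesn1, a sestrin known as a p53 target, rose by 2.44 (edgeR adjusted p = 9.75e-06), from 2.98 to 25.5 CPM to 49.7 to 88.7 CPM. Sesn1 passed the filter on low counts only with help from the Trpm7 cKO libraries, so that it was tested is not independent of its direction. Txn1 and Sesn1 did not pass with the leukocyte covariate, at -1.27 (edgeR adjusted p = 0.124) and 1.97 (0.223).

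Glutathione synthesis and use had 21 genes, 14 of them tested, 3 higher and 7 lower, with a median log2 fold change of -0.51. Over all tested genes the shares were 24.6% higher and 24.1% lower. Glrx5, a mitochondrial glutaredoxin needed for iron-sulfur clusters, had 292 to 348 CPM in control and 73.9 to 141 CPM in Trpm7 cKO libraries, with a log2 fold change of -1.59 (SE 0.16, edgeR adjusted p = 2.53e-07) that was also past the adjusted threshold with the leukocyte covariate, at -2.05 (0.0117). Mgst2, a microsomal glutathione transferase, had 19.7 to 38.1 CPM in control, and 1.85, 1.84, 7.31, 0 and 0 CPM in Trpm7 cKO libraries, which stand for at most 2 counts each. Its log2 fold change of -3.71 (SE 0.53, edgeR adjusted p = 6.88e-06) rests on these few counts. Mgst2 passed the filter on low counts only through the control libraries, so that it was tested is not independent of its direction. Gsto1, an omega-class glutathione transferase, fell by 1.86 on the log2 scale (edgeR adjusted p = 3.12e-05), from 129.7 to 225 CPM to 10.96 to 77.6 CPM. Mgst2 and Gsto1 did not pass with the leukocyte covariate, at -1.54 (edgeR adjusted p = 0.581) and -0.69 (0.684).

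NADPH supply, the source of electrons for both systems, had 10 genes, of which 8 were tested, 0 higher and 6 lower, where 24.1% of all tested genes were lower. Idh1 and Pgd, named here after their values were seen, did not pass. G6pdx, the entry enzyme of the pentose phosphate pathway, had 52.1 to 79.5 CPM in control and 14.6 to 38.6 CPM in Trpm7 cKO libraries, with a log2 fold change of -1.32 (edgeR adjusted p = 8.28e-05). The malic enzymes, which make NADPH from malate, were lower too, Me1 with a log2 fold change of -1.56 (edgeR adjusted p = 4.17e-04) and Me2 with -1.12 (edgeR adjusted p = 2.16e-04). With the leukocyte covariate these 3 genes kept a negative log2 fold change, of -0.35 for G6pdx, -2.78 for Me1 and -1.84 for Me2, and none passed.

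In the list of NRF2 regulation and heme breakdown, 10 of 13 genes were tested, 4 higher and 1 lower. Over all tested genes the shares were 24.6% higher and 24.1% lower. Nfe2l2, the gene of NRF2, had 172 to 247 CPM in control and 138 to 219.9 CPM in Trpm7 cKO libraries, with a log2 fold change of -0.20 (SE 0.16, edgeR adjusted p = 0.316). Keap1, its cytosolic inhibitor, had 21.4 to 27.8 CPM and 23.9 to 39.8 CPM, with a log2 fold change of 0.46 (SE 0.22, edgeR adjusted p = 0.0926), which was -0.00 on the scale of MuSC identity genes and -0.68 with counts per 3000 sorted cells. Neither gene of the sensor pair passed on the TMM scale, and Nfe2l2 passed as lower on the scale of MuSC identity genes, at -0.67 (edgeR adjusted p = 0.0110), and with counts per 3000 sorted cells, at -1.37 (9.29e-04). Those 2 scales moved the median of all tested genes to -0.48 and -1.15. Bach1, the heme-sensing repressor of Hmox1, had 37.0 to 43.8 CPM in control and 68.1 to 138 CPM in Trpm7 cKO libraries, with a log2 fold change of 1.07 (SE 0.19, edgeR adjusted p = 9.83e-05) that turned to -0.14 (0.750) with counts per 3000 sorted cells. Maff, a small MAF partner of NRF2 and BACH1, rose 7.63-fold, from 28.8 to 56.8 CPM to 154 to 369 CPM (log2 fold change 2.93, SE 0.23, edgeR adjusted p = 2.06e-08), and was at 3.00 (0.00440) with the leukocyte covariate. Rbx1, a subunit of the ubiquitin ligase that KEAP1 joins to NRF2, was lower, at -0.79 (edgeR adjusted p = 1.34e-04). Bach1 and Rbx1 did not pass with the leukocyte covariate, at 0.38 (edgeR adjusted p = 0.741) and -0.49 (0.560).

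Gpx1 and Gpx4 contain selenocysteine, whose insertion needs a dedicated machinery. Of 11 selenoprotein synthesis genes and other selenoproteins, 8 were tested, 0 higher and 2 lower, beside 24.6% and 24.1% of all tested genes. Sepsecs, the enzyme that makes selenocysteine on its tRNA, had 16.1 to 27.9 CPM in control and 5.52 to 11.04 CPM in Trpm7 cKO libraries, with a log2 fold change of -1.18 (edgeR adjusted p = 0.00468). Sephs2, which makes the selenium donor, had a log2 fold change of -0.71 (SE 0.30, edgeR adjusted p = 0.0535), and its paralog Sephs1, not itself a selenium donor enzyme, one of -1.45 (edgeR adjusted p = 1.04e-04). Sephs2 passed as lower on the scale of MuSC identity genes, at -1.19 (edgeR adjusted p = 0.00730). With the leukocyte covariate Sepsecs and Sephs1 did not pass, at -0.34 (edgeR adjusted p = 0.895) and -0.43 (0.808). Sepsecs passed the filter on low counts only through the control libraries, so that it was tested is not independent of its direction.

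Oxidant production had 9 genes, of which 3 were tested, all higher with both thresholds, where 8.49% of all tested genes were called higher. Cybb, Cyba and Ncf1, which encode the catalytic subunit, its membrane partner and a cytosolic subunit of the phagocyte NADPH oxidase, had log2 fold changes of 3.56, 3.52 and 3.86 (edgeR adjusted p = 2.24e-04, 2.59e-04 and 8.03e-06). Cyba and Ncf1 had at most 9.94 and 5.79 CPM in control. Cyba and Ncf1 passed the filter on low counts only through the Trpm7 cKO libraries, and Cybb only with help from them. That these 3 genes were tested is thus not independent of their direction. Cybb had 12.05 to 25.8 CPM in control and 40.5 to 320.1 CPM in Trpm7 cKO libraries, lowest in replicate 2, as were the summed leukocyte markers. With the leukocyte covariate, Cybb was at -1.02 (edgeR adjusted p = 0.290), Cyba at 0.07 (0.983) and Ncf1 at 0.10 (0.961).

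**Figure D5:**
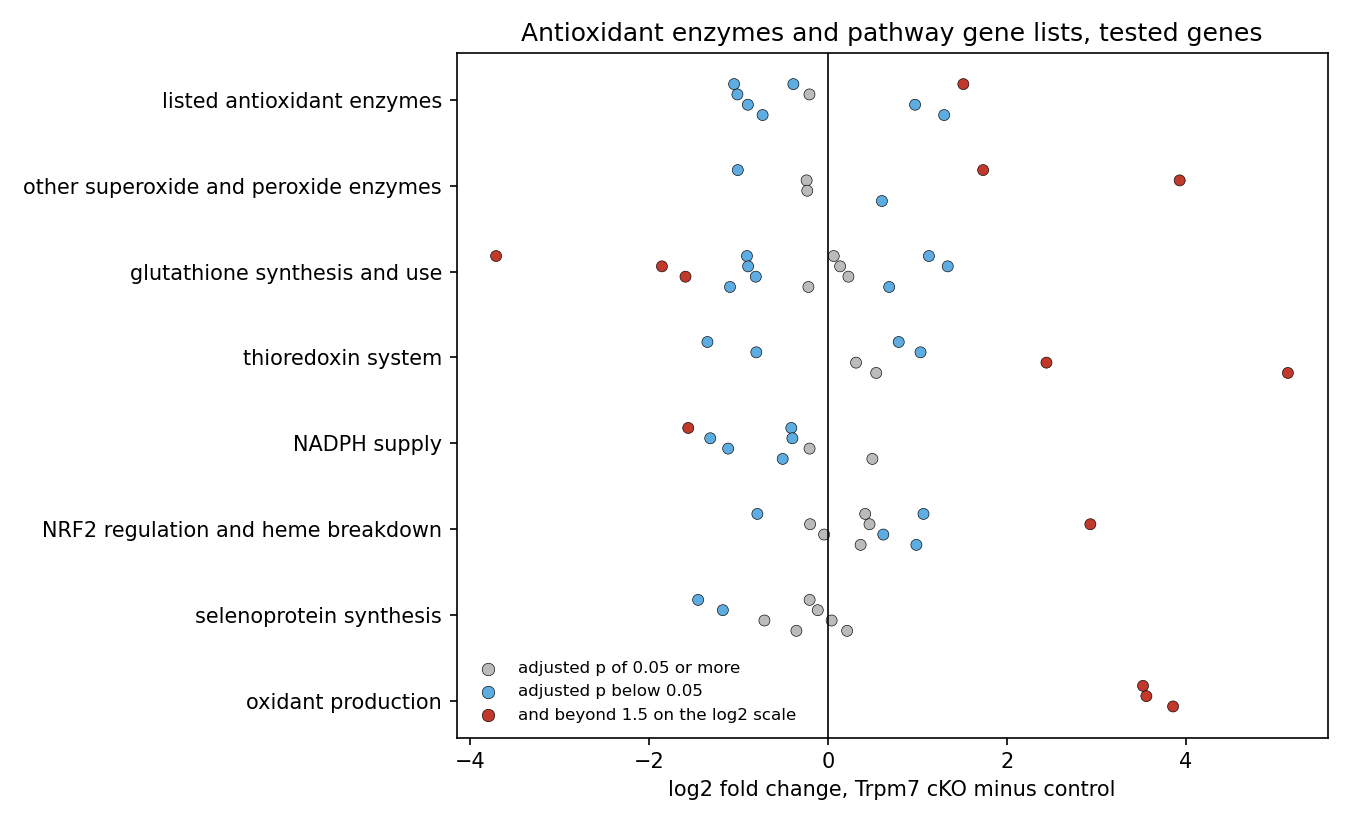
Log2 fold change of Trpm7 cKO over control on the TMM scale for the 9 tested antioxidant enzyme genes (top line) and for the 57 tested genes of the 7 pathway lists, with 1 point per gene. Grey points did not pass the adjusted p threshold, blue points passed it and red points also passed the fold change threshold, with Txnip farthest right, at 5.14, and Mgst2 farthest left, at -3.71.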

How the data were processed

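MuSC libraries were counted in 5 control and 5 Trpm7 cKO samples. The authors extracted UMIs (UMI-tools 1.1.4), trimmed reads and dropped those below 20 bp (Trim Galore 0.6.10), aligned them to GRCm38 (HISAT2 2.2.1), assigned them to genes (featureCounts 2.0.6) and removed UMI duplicates, and deposited whole-number counts per gene without normalization. The annotation release and strand setting are not given in the sources used here. The table has 24620 lines and 24608 symbols, and of 12 symbols listed again the line with the larger total was used.

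Groups and replicate numbers came from the sample labels. Genes were kept by filterByExpr (minimum count 10, minimum total 15), scaled by TMM and tested with edgeR 4.0.16 (R 4.3.3), with a robust quasi-likelihood fit, genotype as the only term and Benjamini-Hochberg adjustment over 7753 genes. The call thresholds are those the methods give for the study's own DESeq2 1.30.1 analysis. Normalized CPM is the count per 1e6 of the tested-gene total times the TMM factor. Ratios within a library used log2 counts with 0.5 added. Single values were compared by exact two-sided permutation over all ways to divide the 10 libraries, whose smallest p is 0.00794. The fit was tested on simulated counts.

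The antioxidant genes, gene lists and tests were chosen with earlier results of these data known. Named genes are the 10 enzymes, the 3 tested genes of each list with the smallest adjusted p, and Nfe2l2, Keap1, Bach1 and Hmox2. Positions and shared transcript ends came from the GENCODE annotation of GRCm38, and promoter windows from RefSeq (GRCm38.p6). Counts differed beyond sampling noise in each of the 20 library pairs within a genotype (chi-square per degree of freedom at least 1.47), and all were kept. Where libraries are not separate animals, p-values measure only the spread between them. Totals of 205986 to 1097709 counts set the precision, and floors of 3 counts cover counting error only. Alternatives were DESeq2 1.42.0, limma-voom (limma 3.58.1), other scalings, filters and thresholds, thinning, covariates, a replicate block and each library left out.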

Additional observations from a re-analysis of the deposited data

Results flagged for a closer look

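Among 76 groups of 5 values (each named gene or ratio in each genotype), 4 had a library far from the others by Dixon's criterion for 5 samples, where chance flags about 1 group in 20. Mgst2 was at 7.31 CPM in Trpm7 cKO replicate 3 and at 0 to 1.85 CPM in the other Trpm7 cKO libraries. G6pdx was at 52.1 CPM in control replicate 5 and at 71.6 to 79.5 CPM in the other controls. Maff was at 56.8 CPM in control replicate 2 and at 28.8 to 34.7 CPM in the other controls. Hmox2 was at 3.31 CPM in Trpm7 cKO replicate 4 and at 0 in the other Trpm7 cKO libraries. None of the 10 antioxidant enzymes was among them.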

How the results depend on the processing

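The 5 lower enzymes stayed lower under all 24 alternatives, and lost the adjusted p threshold only with the leukocyte or erythroid covariate (Prdx3 only with the former) and, for Sod1, with total counts alone and after thinning. Of the enzymes, higher and lower calls at both thresholds (1 and 0 as reported) were 0 and 1 on MuSC identity genes, 0 and 5 per 3000 sorted cells, 2 and 2 at an absolute log2 fold change above 1, and 3 and 5 at adjusted p alone. The higher call was 0 with limma-voom, with genes of at least 1 count (median of all genes -0.20), after thinning (3914 genes tested), with either covariate, with Trpm7 cKO replicates 4 and 5 summed, and without the 2 smallest libraries, an alternative that, like the erythroid covariate, was added after the data were seen. At adjusted p alone (3 and 5), enzymes higher and lower were 0 and 6 per 3000 sorted cells, 1 and 4 after thinning, which left Gpx4 and Hmox1 under the filter on low counts, 0 and 0 with the leukocyte and 0 and 1 with the erythroid covariate.

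Reversals were Gpx1, at -0.29 per 3000 sorted cells, Gpx4, at -1.36 with the leukocyte and -0.10 with the erythroid covariate, Hmox1, at -0.0497 with the leukocyte covariate, and Cat, at 0.00254 and 0.13 with them. The cause was not tested.

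Of the pathway genes (8 and 4 with both thresholds, 17 and 19 at adjusted p alone), 14 were higher at both thresholds with DESeq2 and 2 lower with total counts. MuSC identity scaling gave 10 lower at both and 10 higher at adjusted p alone. Counts per 3000 sorted cells gave 20 lower at both, and 7 higher and 36 lower at adjusted p alone. Genes with at least 1 count gave 14 and 7 at both thresholds. Thinning gave 4 and 1 at both, and 7 and 10 at adjusted p alone. The leukocyte covariate gave 5 and 1 under either rule, the erythroid covariate 5 higher at both, and 6 and 5 at adjusted p alone. An absolute log2 fold change above 1 gave 11 lower, and no fold change threshold 17 and 19.

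With each library left out in turn, the enzymes stayed at 3 higher and 5 lower at adjusted p alone, and at 0 to 1 higher and 0 lower at both thresholds, 0 without control replicate 1 or 3 or Trpm7 cKO replicate 3, 4 or 5. Gpx4 then ranged from 1.15 to 1.73. Pathway genes ranged from 9 to 12 higher and from 2 to 6 lower at both thresholds, with 2 lower without Trpm7 cKO replicate 1. The ratio difference of Hmox1 to Hmox2 ranged from 0.86 to 1.32, and was 0.45 with 2 counts added. That of Prdx3 to Prdx1 ranged from -0.0572 to 0.11, at -0.01 without control replicate 3 and -0.0572 without Trpm7 cKO replicate 3.

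Same-numbered libraries of the genotypes deviated together little (correlations of -0.12 to 0.18), and the numbers were not taken as pairs. With the replicate block, 3 enzymes were higher and 5 lower at adjusted p alone and Gpx4 was at 1.54, with no enzyme call changed.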
